A study of Mus musculus with 6 samples.

Results

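Netrin ligands and their receptors form a small family of axon guidance genes, and their transcripts were followed here in the fetal mouse cortex after maternal exposure to bisphenol A (BPA), a building block of plastics with estrogen-like activity. The family was listed as 10 genes: the netrins Ntn1, Ntn3 and Ntn4, the netrin-binding protein Draxin, and the receptors Dcc, Neo1, Unc5a, Unc5b, Unc5c and Unc5d. Matching by gene symbol found 9 of these 10 among the 45583 genes of the count table. No row bore the symbol Ntn3, which was not analysed here. All 9 genes found were among the 13741 genes with enough counts to be tested. The genes were chosen by name, but with earlier results of the same BPA and vehicle libraries known, among them a lower level of Ntn1 in BPA. Differences between the groups are therefore given as a description, and p-values from the fit on all genes are not independent evidence for any of the 9 genes.

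Netrins are secreted proteins related to laminins that steer growing axons. Dcc mediates attraction to netrin-1, whereas the Unc5 receptors mediate repulsion, alone or together with Dcc. Neogenin, the product of Neo1, is the closest relative of Dcc and also binds the repulsive guidance molecules. Draxin is a secreted repellent that binds both netrin-1 and Dcc. In the developing forebrain, netrin-1 and Dcc are known for their part in the crossing of commissural axons such as those of the corpus callosum, and Unc5d is known as a marker of late-born upper layer neurons and their progenitors.

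RNA sequencing counts were available for the brain cortex of 6 male fetuses at GD15.5 (gestational day), with 3 fetuses and 1 library each in the vehicle and BPA groups. This age is that of the labels and of the study's methods, while the results text of the study names a later day. Dams had received BPA at 50 µg/kg or vehicle (peanut oil) by subcutaneous injection from GD10.5 to GD14.5. Both groups came from the Cyp19-EGFP strain, an FVB/N line with an added artificial chromosome that holds Cyp19a1 and a green fluorescent protein gene, and the labels give the genotype of every fetus as wild type and Sry positive. The labels do not tie fetuses to dams, so littermates cannot be told from fetuses of different litters, and the p-values measure the spread between these 6 fetuses only. Total counts ranged from 5030652 to 7180835 in vehicle and from 3444601 to 6426857 in BPA, and counts of the 9 genes ranged from 54 to 3321 per library, far above the floor of 3 counts.

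All 11 markers of the dorsal pallium, the origin of cortical projection neurons, were present in every library, and their summed level ranged from 2638 to 3250 CPM (the usual read count normalised for depth) in vehicle and from 2975 to 3180 CPM in BPA. The choroid plexus marker Ttr stood at 195 CPM in vehicle replicate 2 and 308 CPM in BPA replicate 2, against 2.20 to 11.9 CPM in the other 4 libraries. Markers of vessels and meninges summed to between 114 and 158 CPM, those of blood cells to between 275 and 591 CPM, and those of microglia to between 42.3 and 52.9 CPM, and for each of these lists the ranges of the groups overlapped. In a bulk sample, fewer cells of a type and less RNA per cell cannot be told apart.

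Because the members of a gene family resemble each other, the sequences that they share were examined first. The longest identical run between the coding sequences of any pair of related members was 27 bases, shared by Unc5b and Unc5c, whereas the reads were 50 bases long. The windows printed here are each 1 read long, lie inside a coding exon of the genome build GRCm38 (GENCODE M21), and read 5′ to 3′ on the strand of the gene, with the longest run of the pair in capitals. The first pair is shown because it holds that longest run, in Unc5b at chr10:60777390-60777439 (minus strand) and in Unc5c at chr3:141771133-141771182 (plus strand), where 12 of the 50 bases differ.

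Unc5b: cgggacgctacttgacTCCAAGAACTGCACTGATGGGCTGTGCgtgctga

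Unc5c: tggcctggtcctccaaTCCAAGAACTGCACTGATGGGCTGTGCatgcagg

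The second pair is shown for its small number of differing bases, 7 of 50, in Unc5a at chr13:54995853-54995902 (plus strand) and Unc5c at chr3:141714700-141714749 (plus strand).

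Unc5a: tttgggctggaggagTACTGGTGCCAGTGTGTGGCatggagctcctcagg

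Unc5c: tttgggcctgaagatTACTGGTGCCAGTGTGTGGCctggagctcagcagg

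The third pair bears on Ntn1, the gene with the largest difference between the groups, and on Ntn3, which had no row of its own. Ntn1 at chr11:68277543-68277592 (minus strand) and Ntn3 at chr17:24207919-24207968 (minus strand) differed at 14 of the 50 bases.

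Ntn1: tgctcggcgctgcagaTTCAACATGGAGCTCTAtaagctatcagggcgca

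Ntn3: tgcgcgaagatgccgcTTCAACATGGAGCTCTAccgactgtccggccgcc

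Over whole transcripts, none of the 50-base words of Ntn1, Neo1, Unc5a or Unc5d occurred in transcripts of another gene on either strand, and at most 0.651% did so for the other 5 genes found, the highest share being that of Ntn4. Annotated overlaps were as small. The gene Hk3 overlaps 34 exonic bases of Unc5a on the opposite strand and had from 2 to 5 counts per library, and the antisense gene Gm15688 overlaps 118 bases of Unc5c and had from 0 to 4 counts.

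The relative abundance of the family members was measured as CPM per kilobase of exon over all 6 libraries, without regard to group. The level and place of Ntn1 therefore include its difference between the groups. Its values were 13.7, 8.57 and 8.92 CPM per kb in vehicle and 5.78, 8.26 and 6.55 CPM per kb in BPA. Neo1 was the most abundant receptor transcript, at 54.9 CPM per kb ± 3.45 (SD, n = 6), and Draxin was the most abundant ligand transcript, at 53.7 CPM per kb ± 3.47 (SD, n = 6). Below them stood Unc5a at 21.5 CPM per kb ± 4.36, Unc5d at 13.1 CPM per kb ± 1.32, Ntn1 at 8.62 CPM per kb ± 2.76, Dcc at 8.04 CPM per kb ± 1.497, Ntn4 at 5.61 CPM per kb ± 0.856, Unc5b at 4.88 CPM per kb ± 0.407 and Unc5c at 1.16 CPM per kb ± 0.218 (SD, n = 6 each). The repellent Draxin thus had a higher level per length than Ntn1 in every library, with 49.1 to 58.2 CPM per kb against 5.78 to 13.7 CPM per kb.

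Each gene was compared with its neighbour in this order within libraries, by an exact two-sided sign-flip permutation test with Benjamini-Hochberg adjustment over the 8 pairs, for which the smallest unadjusted p is 0.03125. The order was taken from the same libraries, which set the direction of each mean difference beforehand. The p-values therefore describe how steady each step was and cannot support the order. Whether a pair at the smallest p passed also depended on how many pairs reached it. Draxin stood 2.53-fold above Unc5a, Unc5d 1.56-fold above Ntn1 and Unc5b 4.25-fold above Unc5c, each in 6 of 6 libraries and each with an adjusted p of 0.0833 in the exact permutation test. Neo1 and Draxin did not differ beyond their spread (1.02-fold, adjusted p = 0.643, exact permutation), nor did Ntn1 and Dcc (1.05-fold, adjusted p = 0.75, exact permutation) or Ntn4 and Unc5b (1.15-fold, adjusted p = 0.292, exact permutation). Unc5a over Unc5d (1.62-fold) and Dcc over Ntn4 (1.41-fold) held in 5 of 6 libraries with an adjusted p of 0.1 (exact permutation), which is not under the threshold of 0.1. With the longest transcript as the length, 6 of the 8 pairs passed and Dcc stood above Ntn1. Neo1 over Draxin was then among the pairs that passed, at 64.8 against 53.7 CPM per kb (adjusted p = 0.0417, exact permutation). Whether these genes differed thus depended on the length used. The level of Unc5c, whose merged exons span 19.1 kb against 9.65 kb for its longest transcript, was 2.30 CPM per kb.

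**Figure D1:**
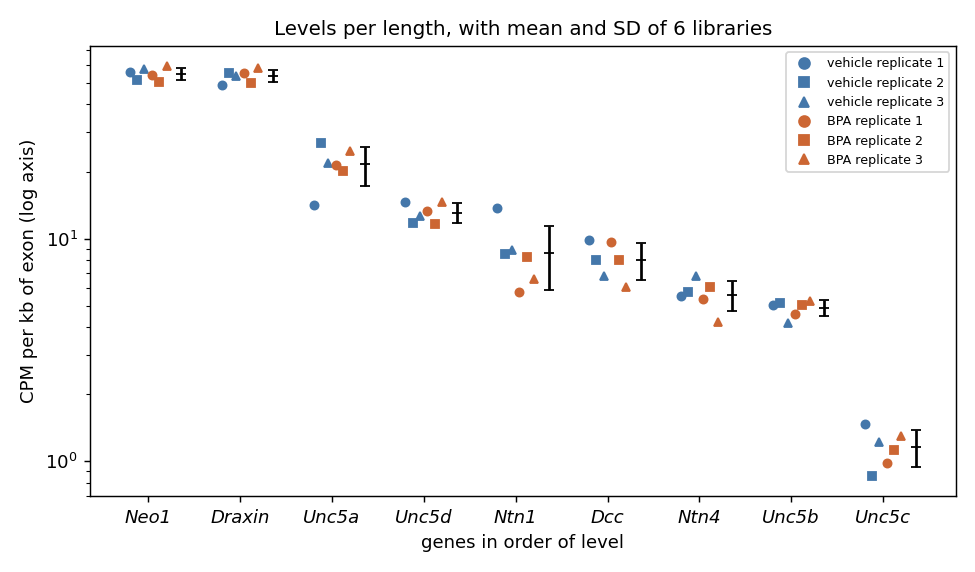
Level of each family member in CPM per kilobase of merged exon (log axis), with 1 point per library and, to the right of each gene, the mean and SD of 6 libraries. Neo1 and Draxin lie near 54 CPM per kb, and Unc5c lies lowest, at about 1.16 CPM per kb.

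Among the 6 receptors, Neo1 held 53.0% ± 2.22 (SD, n = 6) of the summed receptor level per kilobase, Unc5a 20.7% ± 3.81, Unc5d 12.6% ± 1.09, Dcc 7.81% ± 1.63, Unc5b 4.72% ± 0.441 and Unc5c 1.12% ± 0.215. The share of Unc5a stood apart in 1 library, at 14.03% in vehicle replicate 1 against 20.6% to 25.8% in the other 5 libraries.

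Whether maternal BPA altered the family was asked in the comparison of 3 BPA with 3 vehicle libraries. Ntn1 had the largest difference, a lower level in BPA, while the other 8 genes differed by less and had intervals that included no change. By the quasi-likelihood test of edgeR, adjusted by Benjamini-Hochberg over all genes tested, 0 of the 9 genes passed an adjusted p of 0.1, and the share of all genes that passed was 0%. At an unadjusted p under 0.05 there was 1 of the 9, Ntn1, against 2.20% of all genes tested. DESeq2 and limma-voom also called 0 of the 9 genes, and each had 1 of the 9 at an unadjusted p under 0.05. In BPA 5 of the 9 genes had a lower fitted level and 4 a higher one, where 49.5% of all genes tested were lower, and the median log2 fold change was -0.014 for the 9 genes and 0.0016 for all genes. The groups did not overlap for 1 of the 9 genes, Ntn1, against 6.75% of all genes in either direction and 3.56% with BPA lower. Ntn1 was known beforehand to be low in BPA, and nothing is read from these counts.

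**Figure D2:**
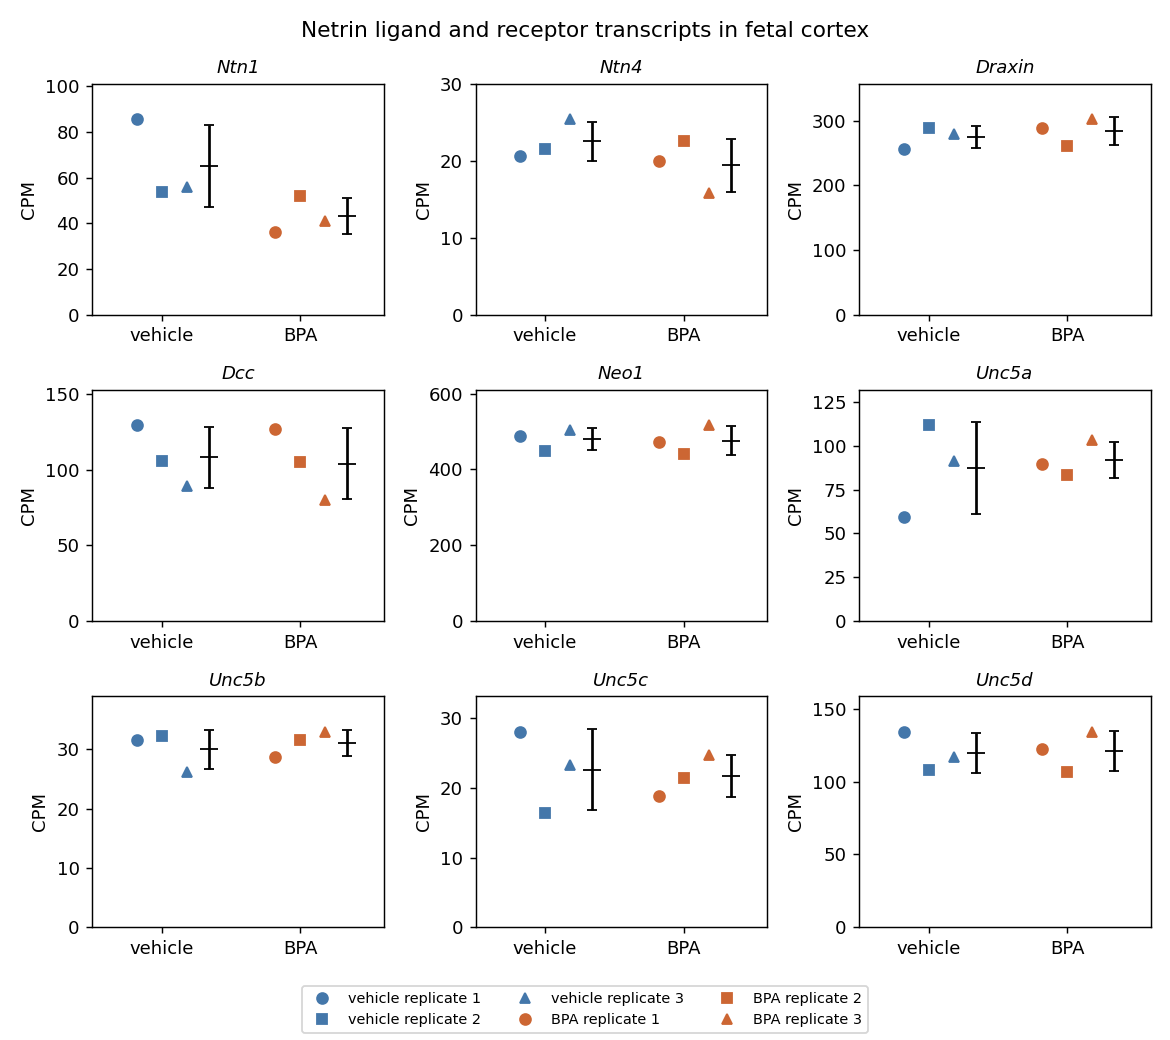
Level of the 9 genes in CPM (linear axes from 0) in each of the 3 vehicle and 3 BPA libraries, with the group mean and SD beside the points. For Ntn1 all 3 BPA points lie below all 3 vehicle points, and for the other 8 genes the groups overlap.

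Ntn1 (ENSMUSG00000020902.12, GRCm38 chromosome 11, 68209364 to 68400823, minus strand), which encodes netrin-1, was at 85.7, 53.8 and 56.0 CPM in vehicle replicates 1 to 3 and at 36.3, 51.8 and 41.1 CPM in BPA replicates 1 to 3. Vehicle replicate 1 lay far above the other vehicle libraries, and the lowest vehicle library and the highest BPA library were separated by 1.94 CPM. That gap is within counting error, since the 95% Poisson interval ran from 48.5 to 59.4 CPM in vehicle replicate 2 and from 46.3 to 57.9 CPM in BPA replicate 2. Vehicle averaged 65.2 CPM ± 17.8 (SD, n = 3) and BPA 43.1 CPM ± 7.96 (SD, n = 3), a log2 fold change of -0.60 with a standard error of 0.175 and a 95% interval from -0.97 to -0.23, or 0.661-fold.

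Ntn1 had an unadjusted p of 0.00366 and, over all genes, an adjusted p of 0.9998 (edgeR, quasi-likelihood). The size of the difference rested in part on vehicle replicate 1, without which the log2 fold change was -0.34, or 0.788-fold. An adjusted p under 0.1 was reached in 2 alternative edgeR fits (quasi-likelihood). It was 0.0132 when genes with low counts were kept. It was 0.0315 when the 2 libraries with high Ttr (vehicle replicate 2 and BPA replicate 2) were omitted, a choice made after seeing the data. There the log2 fold change was -0.89. The omitted libraries were the lowest vehicle and the highest BPA library for Ntn1. Their omission widens the difference whatever their Ttr level, and nothing is read from this p-value.

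The other 2 ligands overlapped between the groups. Ntn4 (ENSMUSG00000020019.4, chromosome 10, 93640681 to 93747207, plus strand) encodes netrin-4, a netrin that also interacts with laminins of the basement membrane. Its level was 20.6, 21.5 and 25.4 CPM in vehicle and 19.9, 22.6 and 15.8 CPM in BPA, so that the lowest value was in BPA replicate 3, the shallowest library, where it rested on 54 counts. Ntn4 thus had a log2 fold change of -0.18, a standard error of 0.159 and a 95% interval from -0.52 to 0.15. Draxin (ENSMUSG00000029005.4, chromosome 4, 148098437 to 148130698, minus strand), the secreted repellent, was steady across libraries. Its values were 255, 288 and 279 CPM in vehicle and 289, 261 and 303 CPM in BPA, with a log2 fold change of 0.05, a standard error of 0.0959 and a 95% interval from -0.15 to 0.25. On the linear scale this interval of Draxin ran from 0.899-fold to 1.19-fold.

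Both receptors of the Dcc branch also overlapped between the groups. Dcc (ENSMUSG00000060534.16, chromosome 18, 71253634 to 72351069, minus strand) was at 129, 106 and 89.1 CPM in vehicle and at 127, 105 and 79.6 CPM in BPA. Dcc spread widely within both groups, and its lowest value in each group was in the library with the fewest counts of that group. Vehicle averaged 108 CPM ± 20.2 (SD, n = 3) and BPA 104 CPM ± 23.5 (SD, n = 3), with a log2 fold change of -0.05, a standard error of 0.156 and a 95% interval from -0.38 to 0.28. Neo1 (ENSMUSG00000032340.8, chromosome 9, 58874687 to 59036441, minus strand) was at 488, 449 and 504 CPM in vehicle and at 471, 441 and 517 CPM in BPA. Neo1 had a log2 fold change of -0.01, a standard error of 0.0950 and a 95% interval from -0.22 to 0.19, and the intervals of Neo1 and Draxin were the narrowest among the 9 genes.

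The Unc5 receptors, which carry a cytoplasmic death domain and are also known as dependence receptors, did not separate the groups either. Unc5a (ENSMUSG00000025876.15, chromosome 13, 54949411 to 55006018, plus strand) was at 59.1, 112 and 91.1 CPM in vehicle and at 89.4, 83.4 and 103 CPM in BPA. The vehicle values of Unc5a enclosed the BPA values, with the lowest in vehicle replicate 1, the library in which Ntn1 was highest. Unc5a had a log2 fold change of 0.07, a standard error of 0.174 and a 95% interval from -0.30 to 0.44, and the value was -0.15 without vehicle replicate 1 and 0.30 without vehicle replicate 2, so that its direction was set by single libraries.

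Unc5b (ENSMUSG00000020099.8, chromosome 10, 60762593 to 60831581, minus strand), which is also expressed by endothelial cells, was at 31.5, 32.2 and 26.2 CPM in vehicle and at 28.7, 31.5 and 33.0 CPM in BPA, a log2 fold change of 0.04 (SE 0.132, 95% interval -0.24 to 0.32). Unc5c (ENSMUSG00000059921.15, chromosome 3, 141465216 to 141834924, plus strand) was at 28.1, 16.5 and 23.3 CPM in vehicle and at 18.8, 21.5 and 24.8 CPM in BPA. Its vehicle values again enclosed those of BPA, and its log2 fold change was -0.07 (SE 0.185, 95% interval -0.47 to 0.32). Unc5d (ENSMUSG00000063626.6, chromosome 8, 28646717 to 29219636, minus strand), the member linked to upper layer neurons, was at 134, 108 and 117 CPM in vehicle and at 122, 107 and 134 CPM in BPA, a log2 fold change of 0.01 (SE 0.115, 95% interval -0.23 to 0.26). For all 8 genes other than Ntn1 the adjusted p was 0.9998 (edgeR, quasi-likelihood). A difference smaller than these intervals was not detectable with 3 libraries a group.

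**Figure D3:**
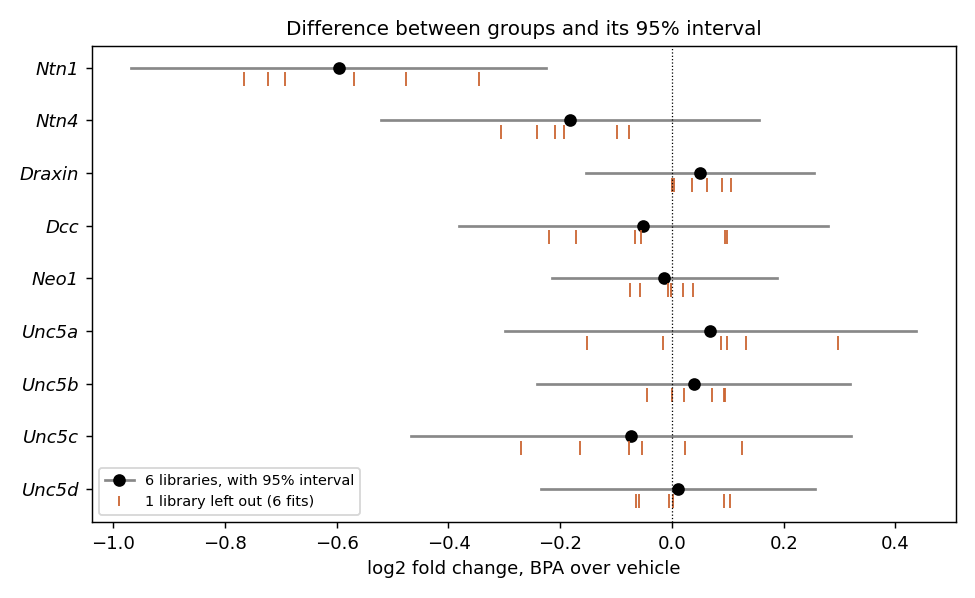
Log2 fold change of BPA over vehicle for each gene (points) with its 95% interval (lines), and the same value in the 6 fits that each left out 1 library (ticks). The interval of Ntn1, from -0.97 to -0.23, lies below 0 in full, and its ticks run from -0.77 to -0.34, whereas the intervals of the other 8 genes include 0.

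How the genes varied among libraries was examined on log2 CPM values from which the mean of each gene was subtracted. Neo1, Draxin and Unc5b varied least in BPA, with standard deviations of 0.115, 0.110 and 0.0999, and Neo1 and Draxin varied least in vehicle, at 0.085 and 0.090, where Unc5b was at 0.161. These compare with a median over genes at 5 CPM or more of 0.147 in vehicle and 0.147 in BPA. Unc5a, Unc5c and Ntn1 varied most in vehicle, with standard deviations of 0.467, 0.384 and 0.371, and in BPA these were 0.157, 0.195 and 0.259. Dcc varied by 0.268 in vehicle and 0.335 in BPA. A single library, vehicle replicate 1, held the highest values of Ntn1 (0.72 above its mean on the log2 scale), Dcc (0.31), Unc5c (0.36) and Unc5d (0.16) and the lowest values of Unc5a (-0.57) and Draxin (-0.13).

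**Figure D4:**
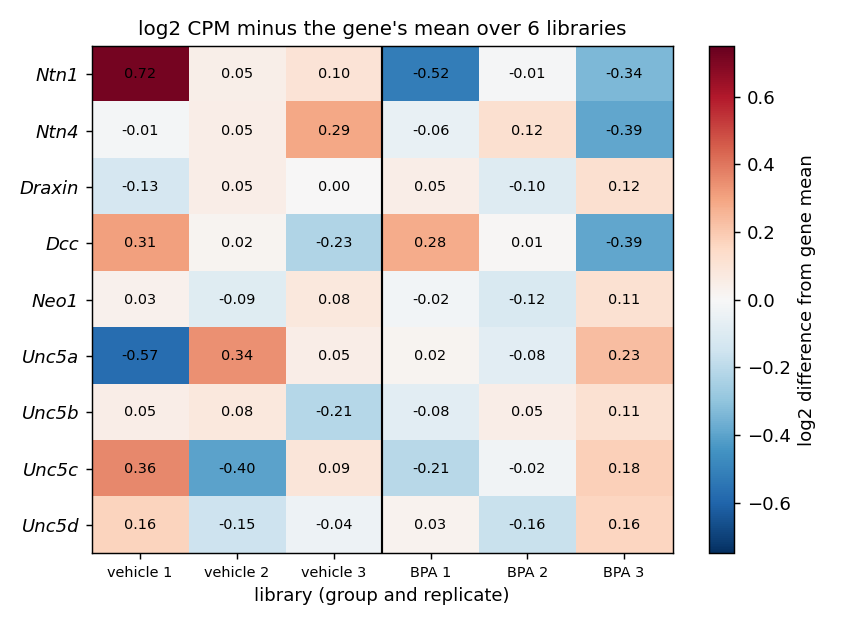
Log2 CPM of each gene in each library minus the gene's mean over the 6 libraries, in colour and as printed values, with a line between the vehicle and BPA libraries. Vehicle replicate 1 holds the extremes, 0.72 for Ntn1 and -0.57 for Unc5a, and the rows of Neo1 and Draxin stay within 0.13 of their means.

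The ventral telencephalon, which lies next to the cortex and gives rise to its interneurons, also expresses Ntn1, and its markers were likewise lower in BPA. All 19 ventral markers had a lower fitted level after BPA under TMM scaling and under the 3 other scalings. Their median log2 fold change was -0.36, and 14 of them did not overlap between the groups, where 3.56% of all genes tested were apart with BPA lower. By the edgeR test 0 of the 19 passed the adjusted threshold, and 10 had an unadjusted p under 0.05, as did 2.20% of all genes tested in either direction. The list was written with earlier results of these libraries known, and its direction is not independent evidence. The summed level of the 19 markers was 1674, 1574 and 1398 CPM in vehicle and 1292, 1360 and 1194 CPM in BPA. Each BPA library thus lay below each vehicle library, and the highest sum was in vehicle replicate 1, where Ntn1 was highest. That top place rested on Zic1, at 164 CPM in vehicle replicate 1 against 42.1 to 82.0 CPM in all other libraries. Without Zic1 the sum of vehicle replicate 1 did not exceed that of vehicle replicate 2. Within groups the observed order of libraries was shared only in part. From vehicle replicate 2 to 3 the sum fell, with Ntn1 at 53.8 and 56.0 CPM. The Poisson intervals of Ntn1 there, 48.5 to 59.4 and 49.7 to 62.9 CPM, overlapped. From BPA replicate 1 to 3 the sum also fell, with Ntn1 at 36.3 and 41.1 CPM. Its intervals there, 31.7 to 41.3 and 34.6 to 48.5 CPM, overlapped as well. These steps in Ntn1 are within counting error, and nothing is read from the order within groups.

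Expressed per 1000 CPM of ventral markers, Ntn1 was at 51.2, 34.2 and 40.1 in vehicle and at 28.1, 38.1 and 34.4 in BPA. On this scale vehicle replicate 2 lay below BPA replicates 2 and 3, whereas vehicle replicates 1 and 3 stayed above all BPA libraries. Before scaling, Ntn1 in vehicle replicate 2 and BPA replicate 2 was only 1.94 CPM apart. The markers were known to be lower in BPA, so this overlap was nearly set beforehand and nothing is read from it. Of the 11 dorsal markers, 9 had a higher fitted level after BPA (8 under upper quartile scaling) and 0 passed the adjusted threshold, and their median log2 fold change was 0.08. No ventral or dorsal marker was at 0 counts in any library. Marker sums do not measure tissue proportions. The part of tissue composition in the lower level of Ntn1 was not tested.

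**Figure D5:**
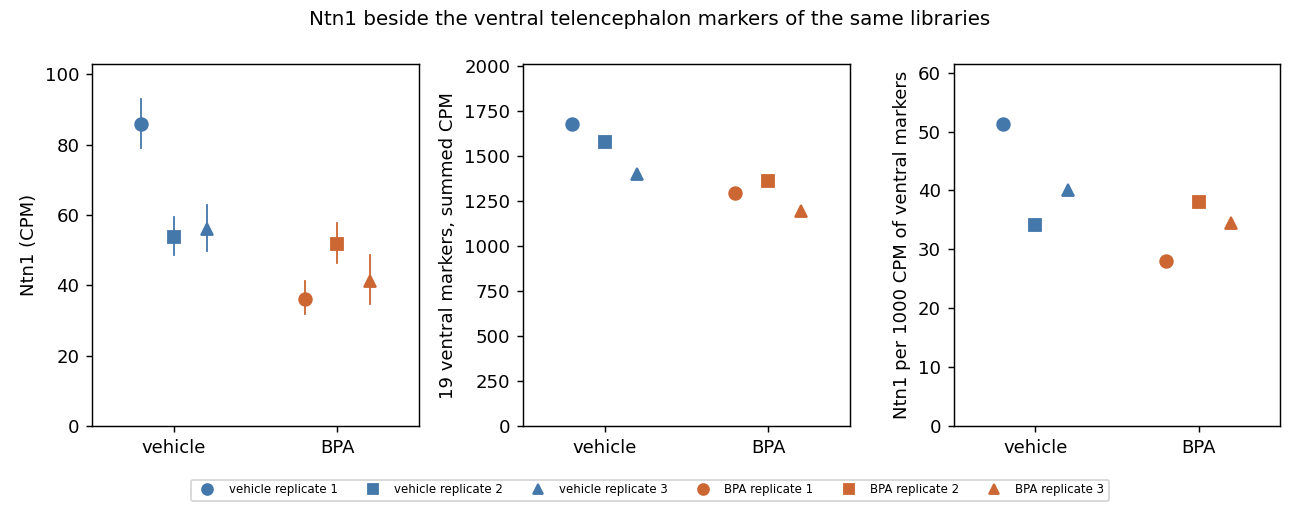
Ntn1 in CPM with 95% Poisson intervals (left), the summed CPM of 19 ventral telencephalon markers (middle), and Ntn1 per 1000 CPM of those markers (right), with 1 point per library and axes from 0. The groups do not overlap in the left and middle panels. They overlap in the right panel, where BPA replicate 2 at 38.1 lies above vehicle replicate 2 at 34.2. Vehicle replicates 1 and 3 lie above all BPA points there.

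Genes with a profile like that of Ntn1 were sought among 11579 other genes at 5 CPM or more, by the mean absolute difference of mean-centred log2 CPM over the 6 libraries. The 5 nearest were Ankdd1b (0.114), Asb4 (0.116), Fgd5 (0.118), Efna5 (0.129) and Cilp2 (0.136), against a median of 0.326 over all these genes. Each had its highest level in vehicle replicate 1, which the choice by likeness to Ntn1 favours. Efna5, which encodes the repulsive guidance ligand ephrin-A5, was at 21.9, 11.7 and 15.6 CPM in vehicle and at 11.5, 13.7 and 11.7 CPM in BPA. Within the family the nearest gene to Ntn1 was Ntn4, at 0.260, and the farthest was Unc5a, at 0.470. Since the likeness was sought over only 6 libraries, which differed in depth, it is a description only.

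Other genes of the pathway were taken from 3 lists. Over all genes tested, 0% passed the adjusted threshold and 2.20% had an unadjusted p under 0.05. Of the other netrin family ligands, which are the membrane-anchored netrin-G proteins and netrin-5, 2 of 3 were tested, with 1 lower and 1 higher after BPA, and 0 of them passed the adjusted threshold or had an unadjusted p under 0.05. Ntng2 averaged 95.7 CPM ± 7.43 after vehicle and 101 CPM ± 17.9 after BPA (SD, n = 3 each), Ntng1 averaged 11.3 CPM ± 1.98 and 10.9 CPM ± 2.34, and Ntn5 had at most 1 count in any library. Of the other ligands and co-receptors, 12 of 13 were tested, 0 passed the adjusted threshold and 0 had an unadjusted p under 0.05, with 8 lower and 4 higher (9 and 3 under upper quartile scaling) and a median log2 fold change of -0.04. The groups did not overlap for 2 of these 12, Rgma and Rgmb, both lower in BPA, where 3.56% of all genes tested were apart in that direction. The list was chosen with earlier results of these libraries known, and nothing is read from this count. For Rgmb the nearest libraries were vehicle replicate 2 (112 CPM, 799 counts) and BPA replicate 2 (110.3 CPM, 681 counts), a gap within counting error. Rgma and Rgmb encode repulsive guidance molecules, which are ligands of neogenin. Rgma was at 167, 166 and 162 CPM in vehicle and at 140.0, 150 and 144 CPM in BPA, a log2 fold change of -0.19 (SE 0.0921), and Rgmb was at 119, 112 and 113 CPM in vehicle and at 92.5, 110.3 and 105 CPM in BPA, a log2 fold change of -0.16 (SE 0.104), each with an adjusted p of 0.9998 (edgeR, quasi-likelihood). Their own receptor Neo1, as given above, had an interval around 0.

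Signalling genes downstream of the receptors, among them kinases and actin regulators, were all tested. Of these 32 genes 0 passed the adjusted threshold, 0 had an unadjusted p under 0.05, and 0 had groups that did not overlap. Over all genes tested these shares were 0%, 2.20% and 6.75% (either direction), and nothing is read from the counts. Lower fitted levels in BPA were seen for 18 (17 to 19 by scaling) and higher ones for 14, with a median log2 fold change of -0.04. By unadjusted p the leading genes were Vasp, an actin regulator, at 51.7 CPM ± 6.65 after vehicle and 44.0 CPM ± 5.74 after BPA (SD, n = 3 each), and Tubb3, a neuronal tubulin bound by netrin receptors, at 2326 CPM ± 170 and 2110 CPM ± 124. Their log2 fold changes were -0.23 (SE 0.132) and -0.14 (SE 0.0947).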

How the data were processed

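The authors deposited raw read counts per gene symbol for 6 libraries of fetal cortex, 3 vehicle and 3 BPA, with 3444601 to 7180835 counts each. According to the study's methods and the processing notes, strand-specific libraries gave 50-base reads from 1 end, which TopHat2 2.0.14 aligned to GRCm38 (mm10) and featureCounts assigned to GENCODE gene models. How the counting treated strand and multi-mapping reads is not given in the sources used here. Groups came from the treatment labels, and replicates were numbered in accession order, which pairs no samples.

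Genes were kept by filterByExpr of edgeR 4.0.16 (R 4.3.3; minimum count 10, minimum total 15), scaled by TMM (trimmed mean of M-values), and compared by the quasi-likelihood test with no covariate at a Benjamini-Hochberg adjusted p of 0.1, following the tool, scaling and adjustment of the study's methods. CPM values used TMM-scaled library sizes, and log2 CPM a prior count of 2. Intervals are 95% intervals from the quasi-likelihood statistic, and Poisson intervals and the floor of 3 counts cover counting error only. Exonic lengths and coordinates came from GENCODE M21. Alternatives were DESeq2 1.42.0, limma-voom 3.58.1, 3 other scalings, 2 other filters and omission of each library, and, chosen after seeing the data, omission of the 2 libraries with high Ttr. The tests were checked on simulated data. Within groups every library pair exceeded sampling noise (chi-square over degrees of freedom, 2.99 to 7.88). The members and all lists were chosen with earlier results of these data known. The genes named are the 10 listed members, the leading 2 genes of each pathway list by unadjusted p, the markers beside a result, and the 5 genes nearest to Ntn1.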

Additional observations from a re-analysis of the deposited data

How the results depend on the processing

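No paired analysis was possible because the labels give no replicate numbers that the groups share. The number of all genes past an adjusted p of 0.1 was 0 in the test reported and 3 with DESeq2, 19 with no filter on low counts, 15 with the 2 libraries with high Ttr omitted, and 0 to 1 when 1 library was left out. Of the 9 family members 1, Ntn1, passed with no filter and 1, again Ntn1, with the 2 libraries with high Ttr omitted, and 0 passed in the 12 other settings. The libraries with high Ttr were the lowest vehicle and the highest BPA library for Ntn1, so their omission widens its difference. The unfiltered test covered 23501 genes. Groups did not overlap for 1 member in the comparison reported, where 6.75% of all genes tested were apart in either direction. They did not overlap for 1 to 2 members when 1 library was left out, and for 3 with the 2 libraries with high Ttr omitted. Fewer libraries make separation easier, and the share of all genes apart in those settings was not recorded, so nothing is read from these counts. Over the 14 settings, 114 of 126 member fold changes kept their sign. The 12 that turned were all from fits that left out 1 library, in which the log2 fold change ran from -0.22 to 0.10 for Dcc, -0.075 to 0.037 for Neo1, -0.15 to 0.30 for Unc5a, -0.044 to 0.096 for Unc5b, -0.27 to 0.13 for Unc5c and -0.064 to 0.10 for Unc5d. Ntn1 ran from -0.77 to -0.34 and Ntn4 from -0.31 to -0.08, both lower in BPA in each of these fits. The cause of these shifts was not tested. Neighbours past the adjusted threshold, in an order taken from the same libraries, numbered 3 of 8 pairs and 6 with the longest transcript as length. They numbered 0 when any 1 library was left out, where the smallest unadjusted p that 5 libraries allow is 0.0625 (exact permutation). For Ntn4 in BPA replicate 3, 54 counts limit the precision.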
